A study of Mus musculus with 8 samples.

Results

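The genes described here are the meiotic cohesin subunits Smc1b, Stag3 and Rec8, the synaptonemal complex genes Sycp3 and Sycp1, and the germline genes Dazl, Ddx4 and Mael. They are 8 of the 18140 mouse genes that the array measured with a probe set (a group of short probes against 1 transcript) naming exactly 1 gene. Every such probe set was taken, 2 for Dazl and 1 for each of the others, or 9 in all. All 8 genes passed the filter on low values and were among the 12400 genes tested. Of the 72 probe set values of the 8 genes, 72 lay above the median of their array, so none had to be set aside as dim. The nearest to it was Smc1b on the array of Smc2 hairpin 1, at 1.11 times that array's median.

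The cells were V6.5, a line of mouse embryonic stem cells, and all 4 groups had received a short hairpin RNA by viral infection (8 µg/ml polybrene), then 4 days of selection with puromycin at 4 µg/ml before lysis. The CapH2 group (hairpins 3 and 4, against Ncaph2 of condensin II) and the Smc2 group (hairpins 1 and 2, against the subunit shared by both condensins) had 1 array per hairpin. The Smc1 group (against Smc1a of cohesin) and the control group, a hairpin against GFP, had 1 hairpin each and 2 arrays labelled as biological replicates. Each group thus had 2 arrays, and an effect of the Smc1 or GFP hairpin on other genes cannot be told apart from that of its target.

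Cohesin is a ring that holds sister chromatids together and shapes chromosome loops. In germ cells that enter meiosis, Smc1b takes the place of Smc1a, Stag3 that of Stag1 and Stag2, and Rec8 that of Rad21. Sycp3 builds the axes of meiotic chromosomes and Sycp1 the filaments that zip paired axes together. Dazl and Ddx4 are RNA-binding proteins of germ cells, Ddx4 being the Vasa helicase, and Mael acts in the piRNA pathway, which silences transposons. Many such germline genes are held down in embryonic stem cells by DNA methylation, H3K9 methylation and the variant polycomb complex PRC1.6, which reaches DNA through E2F6 with its partner DP1 and through MGA with MAX; the first pair binds E2F-like sites and the second binds E-boxes.

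The promoters are shown because 7 of the 8 hold a letter sequence of the kind that E2F6 binds. Windows from 250 bases before to 50 bases after each gene's start came from RefSeq on GRCm38.p6, and all 8 genes were matched by symbol. An E2F-like sequence was GCGGGA, or TCCCGC on the other strand. An E-box was CACGTG, which reads the same on both strands. The windows below are printed 5′ to 3′ on the gene's own strand, with both kinds of motif in capitals; they are Smc1b at chr15:85131908-85132207 (minus strand), Stag3 at chr5:138280259-138280558 (plus), Rec8 at chr14:55617916-55618215 (plus) and Dazl at chr17:50293571-50293870 (minus). They were chosen as the 3 meiotic cohesin genes and the 1 gene whose window held neither motif.
Smc1b: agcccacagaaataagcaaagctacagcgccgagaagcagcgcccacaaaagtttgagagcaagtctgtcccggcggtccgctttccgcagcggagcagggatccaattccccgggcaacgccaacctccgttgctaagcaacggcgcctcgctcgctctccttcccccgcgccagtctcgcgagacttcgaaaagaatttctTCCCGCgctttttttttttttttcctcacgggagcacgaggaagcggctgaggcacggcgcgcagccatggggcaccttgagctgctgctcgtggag
Stag3: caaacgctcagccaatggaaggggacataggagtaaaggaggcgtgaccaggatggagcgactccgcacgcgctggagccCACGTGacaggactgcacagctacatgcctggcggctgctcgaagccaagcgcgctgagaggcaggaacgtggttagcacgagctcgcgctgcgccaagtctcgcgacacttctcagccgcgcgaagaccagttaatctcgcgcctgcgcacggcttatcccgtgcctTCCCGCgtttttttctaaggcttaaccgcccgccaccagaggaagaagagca
Rec8: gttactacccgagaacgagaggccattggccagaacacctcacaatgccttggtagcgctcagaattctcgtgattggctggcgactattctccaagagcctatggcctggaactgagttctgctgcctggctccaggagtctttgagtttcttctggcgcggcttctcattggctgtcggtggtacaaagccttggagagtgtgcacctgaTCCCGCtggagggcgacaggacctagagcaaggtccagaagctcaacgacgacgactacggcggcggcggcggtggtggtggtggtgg
Dazl: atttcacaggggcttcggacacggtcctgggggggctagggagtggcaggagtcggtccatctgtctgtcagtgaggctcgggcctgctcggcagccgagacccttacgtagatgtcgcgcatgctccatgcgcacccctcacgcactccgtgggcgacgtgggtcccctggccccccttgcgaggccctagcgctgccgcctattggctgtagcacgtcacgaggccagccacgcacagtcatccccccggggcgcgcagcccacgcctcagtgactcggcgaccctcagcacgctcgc

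An E2F-like sequence lay in 7 of the 8 windows, against 6562 of the 32851 windows in the table. The E-box lay in 5 of 8, against 7.15%, and both motifs lay in the same 5, against 1.99%. Those 5 were Stag3, Sycp3, Sycp1, Mael and Ddx4, while Smc1b and Rec8 held the E2F-like sequence alone. Counting from the start site, TCCCGC began at -47 in Smc1b, at -2 in Stag3 and at -38 in Rec8, and the E-box of Stag3 began at -170. Dazl was 1 of the 8 windows with neither, as were 74.9% of all windows. The GC content of the 4 printed windows ran from 58.3% in Rec8 to 68.7% in Dazl, against a median of 52.7% over all windows, so all 4 were richer in G and C than the median window. A match describes letters in a window, and binding was not measured.

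**Figure D1:**
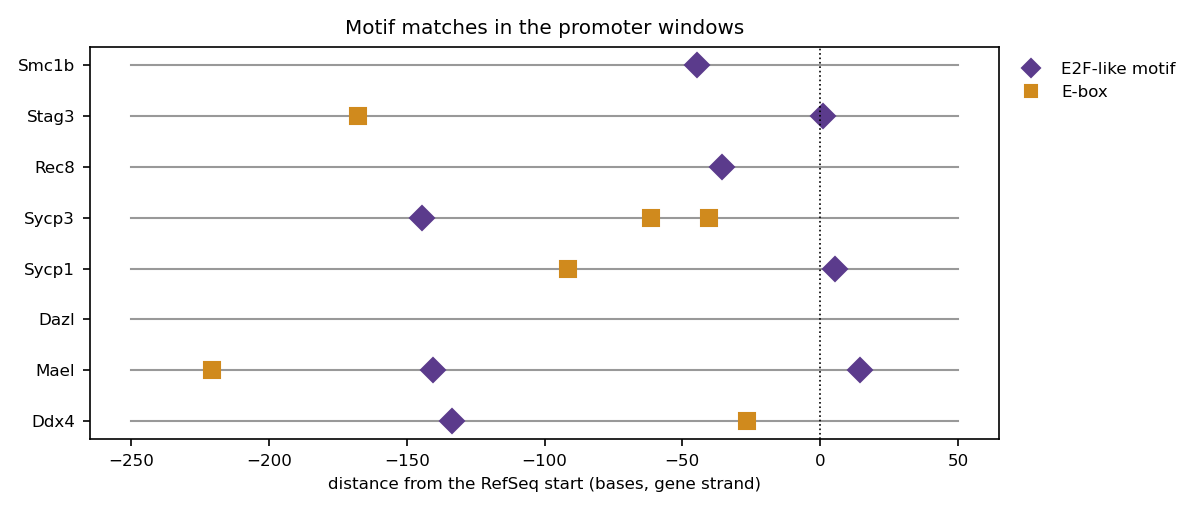
Positions of E2F-like sequences (GCGGGA or TCCCGC) and E-boxes (CACGTG) in the promoter windows of the 8 genes, in bases from the start site, on the gene's strand. The E2F-like sequence is in 7 windows, the E-box in 5, and Dazl has neither.

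The deposited values are linear intensities, in arbitrary units that do not compare 1 gene with another. Array medians were 62.5 to 74.5. The targeted genes went with the labels: in its own knockdown Ncaph2 stood at 397.5 and 429.5 (GFP 3469 and 3168), Smc2 at 2234 and 2859 (GFP 8756 and 7146) and Smc1a at 534.8 and 453.7 (GFP 4165 and 3662). The 10 pluripotent cell markers summed to 135800 to 139900 on GFP, 117900 to 123800 on CapH2, 126600 to 132900 on Smc2 and 83350 to 101200 on Smc1. The markers were thus present in every group, at the lowest sum in Smc1. Against GFP, 7 of the 10 were lower in Smc1 at a limma adjusted p below 0.05, where 14.1% of all genes tested passed. They were Pou5f1, Sox2, Nanog, Esrrb, Klf4, Zfp42 and Fgf4. In CapH2 and in Smc2 the count was 0. Dppa5a (31640 and 35150 on Smc1) and Tdgf1 (19580 and 21820), which weigh most in the sum, did not pass. The Actb 3'/5' ratio, the signal of a control probe set at the 3' end of Actb over that at the 5' end, moves with RNA integrity and labelling. It was 2.18 and 2.04 for GFP, 1.70 and 1.84 for Smc1 replicates 1 and 2, 1.67 (hairpin 3) and 1.98 (hairpin 4) for CapH2, and 1.82 (hairpin 1) and 2.18 (hairpin 2) for Smc2. It was thus highest on GFP and on Smc2 hairpin 2, and its part in the results was not tested beyond the fit with it as a term given below. In that fit Nanog passed the same threshold in Smc1 against GFP (-0.595, limma adjusted p = 0.0378). Pou5f1 (-0.459, adjusted p = 0.284) and Sox2 (-0.765, adjusted p = 0.0922) did not.

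Smc1b, the meiotic counterpart of Smc1a, measured 849 and 660 on the GFP arrays. It measured 123 and 428 on CapH2 (hairpin 3, then 4), 69.3 and 644 on Smc2 (hairpin 1, then 2), and 113 and 495 on Smc1 replicates 1 and 2. All 6 knockdown arrays lay below both GFP arrays, but within each knockdown 1 array was far below the other, by 3.47 times in CapH2, 9.3 times in Smc2 and 4.38 times in Smc1. The GFP mean was 755 ± 133 (SD, n = 2), and CapH2 stood at 36.5% of it, Smc2 at 47.3% and Smc1 at 40.3%. The log2 change against GFP, on log2(value + 16), was -1.62 in CapH2 (SE 0.907, limma adjusted p = 0.474), -1.69 in Smc2 (adjusted p = 0.449) and -1.57 in Smc1 (adjusted p = 0.270). None passed the threshold, an adjusted p below 0.05, and no difference beyond the spread between arrays was shown. The 95% interval of the CapH2 change ran from -3.64 to 0.40. In bulk RNA, fewer cells with a transcript and less of it per cell cannot be told apart, here and for every gene that follows.

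Stag3, the meiotic STAG subunit, was lower on the same array of each group as Smc1b. It measured 2589 and 2013 on GFP, 729 and 1342 on CapH2 (hairpin 3, then 4), 613 and 1449 on Smc2 (hairpin 1, then 2), and 639 and 1556 on Smc1 replicates 1 and 2. The 6 knockdown arrays lay below both GFP arrays, and the group means were 45% of GFP in CapH2, 44.8% in Smc2 and 47.7% in Smc1. The log2 changes were -1.19 (SE 0.475, limma adjusted p = 0.366), -1.26 (adjusted p = 0.342) and -1.18 (adjusted p = 0.124), all at an unadjusted p below 0.05 and none past the adjusted threshold. The mean of the 3 knockdowns against GFP was -1.21 (SE 0.388, adjusted p = 0.106).

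Rec8, the meiotic kleisin that closes the ring, ran the other way. It measured 271 and 199 on GFP, 283 and 363 on CapH2 (hairpin 3, then 4), 245 and 283 on Smc2 (hairpin 1, then 2), and 576 and 656 on Smc1. Both Smc1 arrays stood above every other array, both CapH2 arrays stood above GFP by less, and Smc2 overlapped GFP. The Smc1 mean was 616 ± 56.2 against 235 ± 50.9 on GFP (SD, n = 2 per group), or 262%. Rec8 rose in the Smc1 knockdown by 1.35 on the log2 scale (SE 0.237, 95% interval 0.82 to 1.87, limma adjusted p = 0.00781). The changes in CapH2 (0.44, adjusted p = 0.460) and Smc2 (0.17, adjusted p = 0.780) did not pass. The difference itself, Smc1 against the averaged CapH2 and Smc2 groups (the condensin knockdowns), was 1.04 (SE 0.205, 95% interval 0.583 to 1.498, adjusted p = 0.0182). Without Smc1 replicate 1 the first call was lost (1.44, adjusted p = 0.0640), as it was without GFP replicate 2 (1.14, adjusted p = 0.0599). The call against the condensin knockdowns was lost without Smc1 replicate 1 (1.13, adjusted p = 0.160) or Smc1 replicate 2 (0.95, adjusted p = 0.109). Both Rec8 calls stood with the Actb 3'/5' ratio as a term, at 1.68 (adjusted p = 0.0134) against GFP and 1.18 (adjusted p = 0.00492) against the condensin knockdowns.

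Sycp3, the axis protein, measured 4834 and 2635 on GFP, 1592 and 3343 on CapH2 (hairpin 3, then 4), 1745 and 3348 on Smc2 (hairpin 1, then 2), and 2231 and 3505 on Smc1 replicates 1 and 2. The GFP arrays differed by 1.83 times between themselves, and in each knockdown 1 array lay between them. The log2 changes were -0.63 in CapH2 (limma adjusted p = 0.549), -0.56 in Smc2 (0.592) and -0.35 in Smc1 (0.618).

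Sycp1, the zipper protein, measured 385 and 266 on GFP, 178 and 218 on CapH2, 242 and 269 on Smc2, and 274 and 283 on Smc1. Both CapH2 arrays lay below both GFP arrays, at a mean of 60.8% of GFP, as did Smc2 hairpin 1, while Smc2 hairpin 2 and both Smc1 arrays lay between the GFP arrays. The log2 change there was -0.66 (SE 0.245, limma adjusted p = 0.342), against -0.31 in Smc2 and -0.19 in Smc1, and the CapH2 and Smc2 knockdowns differed by -0.35 with a 95% interval from -0.90 to 0.20.

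Dazl, which binds and regulates germ cell messenger RNAs, was the member furthest below GFP in CapH2. Its main probe set measured 1830 and 2832 on GFP, 466 and 672 on CapH2 (hairpin 3, then 4), 533 and 1292 on Smc2 (hairpin 1, then 2), and 677 and 1379 on Smc1 replicates 1 and 2. Its second probe set measured 833 and 1003 on GFP, 193 and 293 on CapH2, 236 and 489 on Smc2, and 280 and 604 on Smc1. Both probe sets put all 6 knockdown arrays below both GFP arrays and the same array lower in each knockdown. The log2 changes of the main probe set were -1.99 in CapH2 (SE 0.437, 95% interval -2.97 to -1.02, limma adjusted p = 0.195), -1.44 in Smc2 (adjusted p = 0.264) and -1.22 in Smc1 (adjusted p = 0.0893). Those of the second were -1.87, -1.38 and -1.12.

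Against GFP, no single knockdown passed for Dazl, and the mean of the 3 knockdowns did, at -1.55 (SE 0.357, limma adjusted p = 0.0477). That value lies just inside the threshold, and the second probe set gave -1.46 (adjusted p = 0.0878). The call was lost without CapH2 hairpin 3 (-1.46, adjusted p = 0.0815), Smc1 replicate 1 (-1.38, adjusted p = 0.101), either GFP array (-1.86 and adjusted p = 0.256 without replicate 1, -1.24 and adjusted p = 0.287 without replicate 2), and with the Actb 3'/5' ratio as a term (-0.94, adjusted p = 0.259). It was also lost with a pseudocount of 1 (adjusted p = 0.0514), with no filter on low values (0.0847) and with every probe set tested (0.0905). Without Smc2 hairpin 2, which left that group with 1 array, the change of Dazl in the Smc2 knockdown was -2.06. The mean of the 3 knockdowns was then -2.12 for Smc1b and -1.41 for Stag3. In the Smc1 knockdown Dazl stayed at -1.22 without Smc2 hairpin 1 or hairpin 2. Those arrays enter that comparison only through the shared estimate of the spread. These values passed the threshold only in such fits, where more of all genes passed in the same comparison than in the main fit. The gained calls were thus not particular to these genes.

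Ddx4, the Vasa helicase, measured 2852 and 2261 on GFP, 1241 and 1913 on CapH2, 1552 and 2166 on Smc2 and 1806 and 2083 on Smc1. The 6 knockdown arrays lay below both GFP arrays by modest amounts. The log2 changes were -0.71 in CapH2 (SE 0.248, limma adjusted p = 0.320), -0.47 in Smc2 (adjusted p = 0.446) and -0.39 in Smc1 (adjusted p = 0.325), and their mean was -0.52 (adjusted p = 0.161).

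Mael, the piRNA pathway protein, measured 1432 and 1052 on GFP, 588 and 876 on CapH2, 856 and 995 on Smc2, and 1229 and 1403 on Smc1. Both condensin knockdowns lay below GFP on both arrays, and the Smc1 arrays lay between the GFP arrays. The log2 changes were -0.76 in CapH2 (SE 0.240, limma adjusted p = 0.301), -0.41 in Smc2 (adjusted p = 0.487) and 0.10 in Smc1 (adjusted p = 0.821). The difference between Smc1 and the condensin knockdowns was 0.68 (95% interval 0.22 to 1.14, adjusted p = 0.0775) and did not pass.

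**Figure D2:**
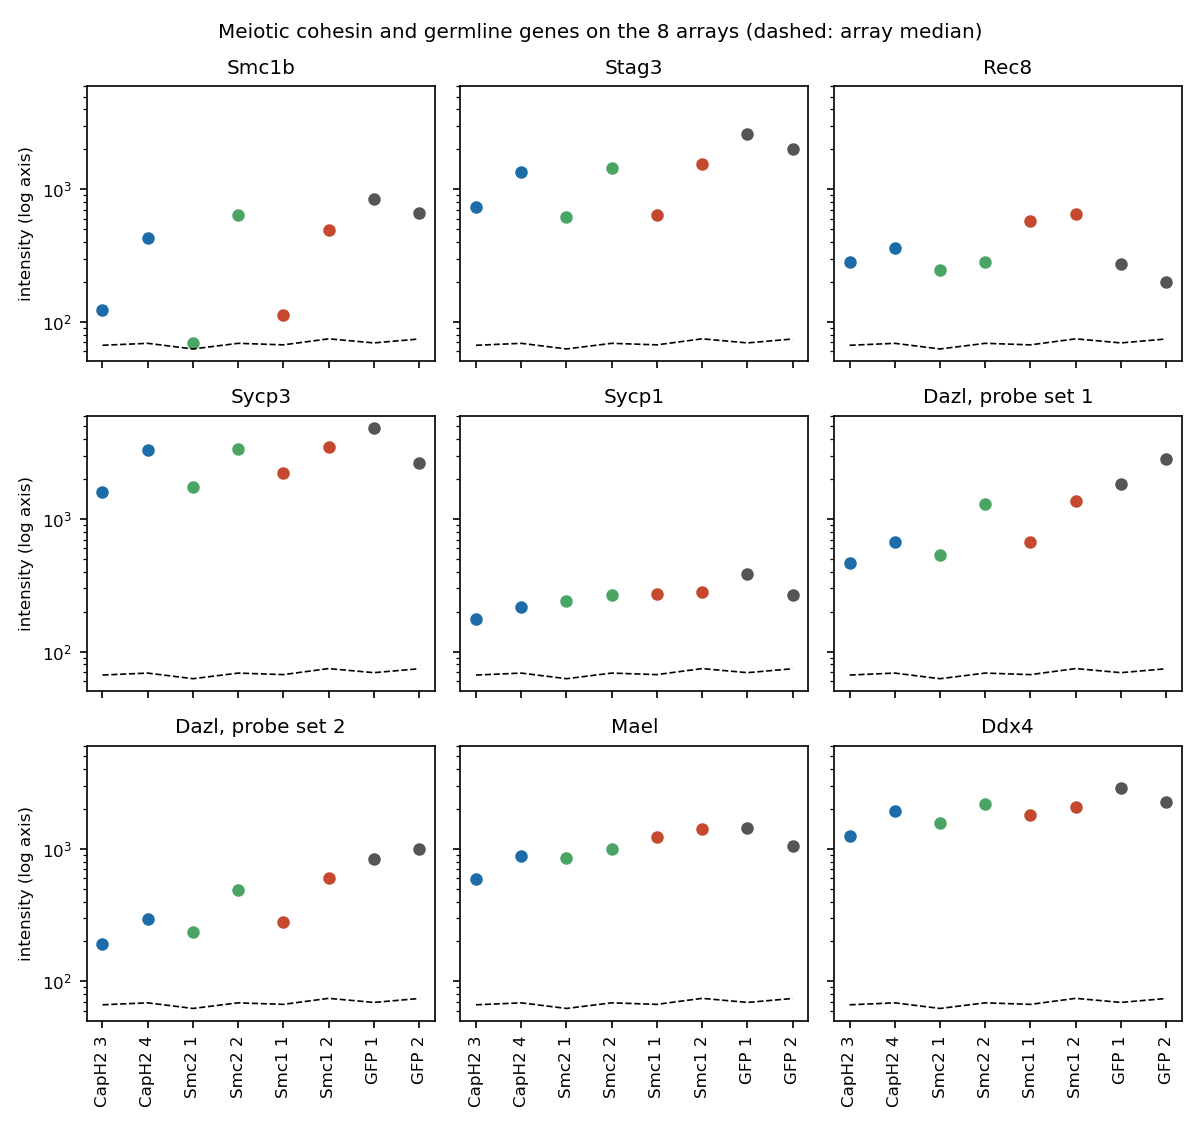
Intensity (log axis) of the 8 genes on each of the 8 arrays, 1 panel a probe set (2 for Dazl), 1 point an array, coloured by hairpin target, with the array medians dashed. Smc1b, Stag3, Dazl and Ddx4 are lower on all 6 knockdown arrays than on either GFP array, and Rec8 is highest on the Smc1 arrays.

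Over the 8 genes, 0 were called in CapH2 against GFP, where 0.0161% of all genes tested were called, and 0 in Smc2 against GFP, where the share was also 0.0161%. At an unadjusted p below 0.05 there were 5 in CapH2 and 2 in Smc2, against 12.6% of all genes in each, 3 in Smc1, against 31.2%, and 4 in the mean of the 3 knockdowns, against 23.6%. In Smc1 against GFP 1 was called, Rec8, where 14.1% of all genes were, so the count of 1 in 8 was near the background. The mean of the 3 knockdowns called 1, Dazl, against 3.4%, and Smc1 against the condensin knockdowns called 1, Rec8, against 7.85%. CapH2 against Smc2 called 0 of the 8, against 0.00806%, with 0 at an unadjusted p below 0.05 against 1.03%; the differences ran from -0.56 to 0.27. Their intervals were wide, from -1.96 to 2.09 for Smc1b and from -1.53 to 0.42 for Dazl, so a difference between the condensin knockdowns was not resolved.

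The median log2 change of the 8 genes was -0.74 in CapH2, -0.51 in Smc2 and -0.37 in Smc1, beside medians of 0.0119, -0.00461 and 0.028 over all genes tested. These 3 comparisons share the GFP arrays. In CapH2 7 of the 8 changes were negative, in Smc2 7 and in Smc1 6, with Rec8 positive in each. Counted by arrays, 6 of the 8 lay below both GFP arrays in CapH2, where 21.9% of all genes did, and 1 lay above both, against 25.3%. In Smc2 the counts were 5 below, against 21.7%, and 0 above, against 23.2%. In Smc1 they were 4 below, against 28.4%, and 1 above, against 34.6%. On all 6 knockdown arrays together 4 lay below both GFP arrays (Smc1b, Stag3, Dazl and Ddx4), against 9.46% of all genes, and 0 lay above, against 12.6%. Among all genes the called ones split into 1 higher and 1 lower in CapH2, or 2 and 1 after quantile normalization, and into 0 higher and 1 lower in CapH2 against Smc2, or 1 and 1.

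**Figure D3:**
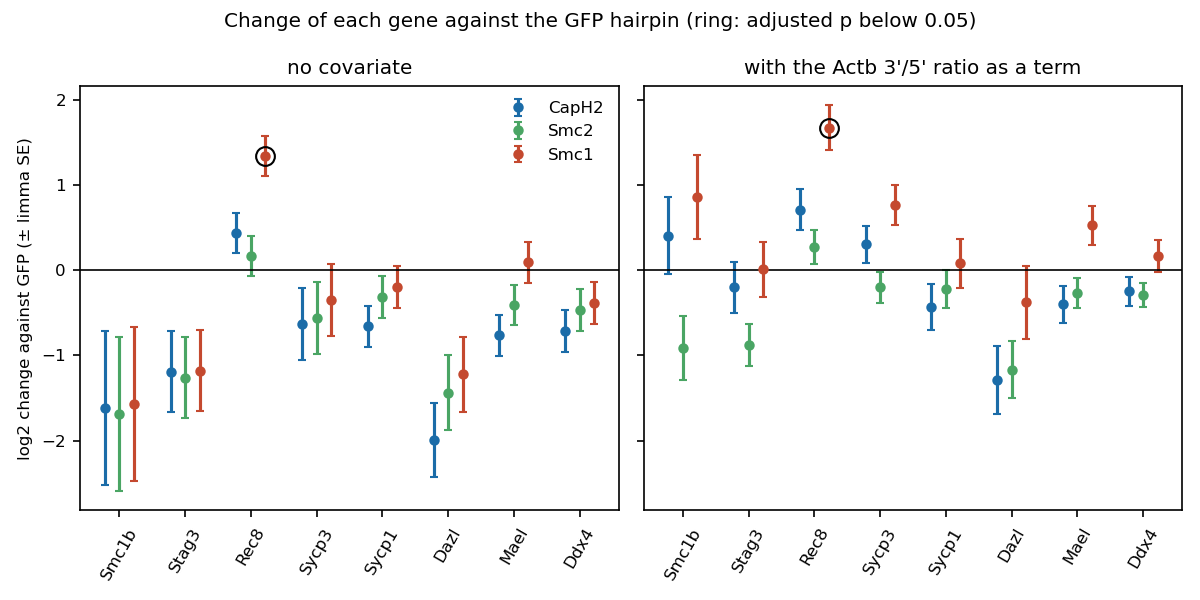
Log2 change of each of the 8 genes against GFP in the CapH2, Smc2 and Smc1 knockdowns on log2(intensity + 16), with bars for the limma SE, without a covariate (left) and with the Actb 3'/5' ratio as a term (right). Rec8 in Smc1 is the only ringed, called value in either panel (1.35 and 1.68), and Smc1b in CapH2 moves from -1.62 to 0.41.

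A pattern noticed after the values were seen ran through the knockdown arrays. On CapH2 hairpin 3, Smc2 hairpin 1 and Smc1 replicate 1, all 9 probe sets of the 8 genes lay below the other array of the same group. Of all genes tested, 23.2% were lower on those 3 arrays. The same 3 arrays had the lower Actb 3'/5' ratio of their group, 1.67, 1.82 and 1.70. With that ratio as a term in the fit, a choice made after the data were seen, the changes of Smc1b were 0.41 in CapH2, -0.91 in Smc2 and 0.86 in Smc1, so 2 of its 3 directions turned. Those of Stag3 were -0.20, -0.88 and 0.01, and those of Sycp3 0.31, -0.20 and 0.77, so Stag3 turned in Smc1 and Sycp3 in CapH2 and Smc1. Those of Dazl were -1.29, -1.17 and -0.38, and each kept its sign. The fit with the term has 1 residual degree of freedom fewer, and the ratio and the groups overlap in part, since both GFP arrays had high ratios.

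**Figure D4:**
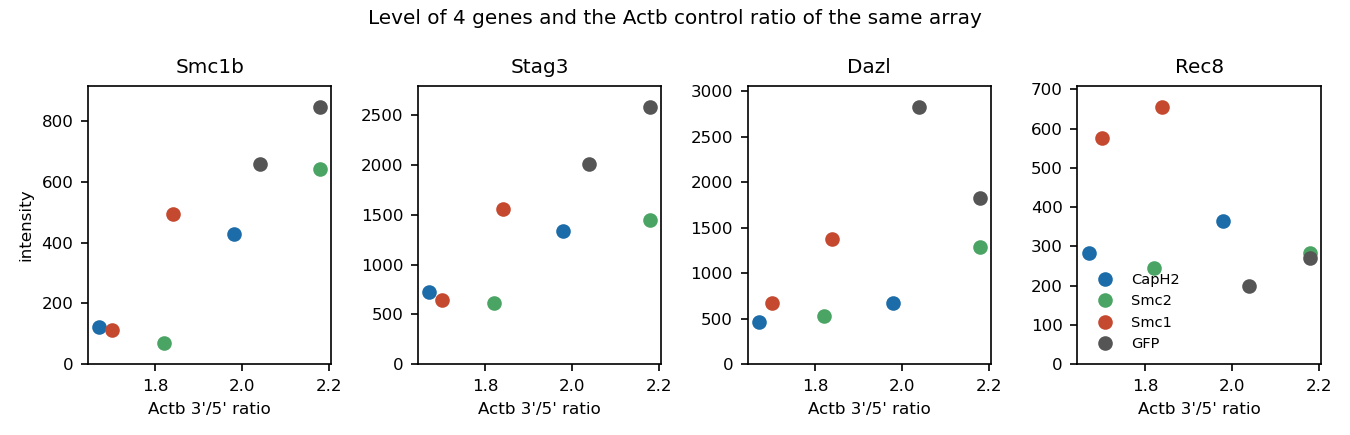
Intensity of Smc1b, Stag3, Dazl and Rec8 (vertical axes from 0) against the Actb 3'/5' ratio of the same array, 8 arrays coloured by group. Smc1b and Stag3 are lowest on arrays with ratios from 1.67 to 1.82 and highest on GFP, while Rec8 is highest on the Smc1 arrays, at ratios of 1.70 and 1.84.

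The other genes of the same pathways were taken from 7 lists with 98 genes tested, chosen with earlier results of these data known. In CapH2 against GFP and in Smc2 against GFP 0 of the 98 were called. In Smc1 against GFP 8 were called higher and 17 lower, 25 in all. Of all 12400 genes 14.1% were called there, 1163 higher and 582 lower, and each list count in Smc1 below is to be read against that share and split. The total of 25 was 5 when Smc1 replicate 1 was left out and 20 when Smc1 replicate 2 was, 8 and 7 when GFP replicates 1 and 2 were, and 9 with the Actb 3'/5' ratio as a term. Of the 19 genes that the naming rule took from this comparison, 4 (Smc1a, Prdm14, Syce2 and Tfap2c) were called with each of those 4 arrays left out. With the Actb 3'/5' ratio as a term 9 of the 19 were called.

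Among 6 other cohesin genes and shugoshins, 1 was called higher and 2 lower in Smc1. Smc1a itself fell by 2.95 on the log2 scale (limma adjusted p = 8.04e-05), Stag1, a STAG subunit of mitotic cohesin, rose by 0.82 (adjusted p = 0.0235), and Sgo2a, which protects centromeric cohesin, fell by 1.20 (adjusted p = 0.0265). The median of the 6 was -0.28. Stag1 and Sgo2a were each called in 0 of the 4 fits with an array left out, and with the Actb ratio as a term they stood at 0.78 (adjusted p = 0.0953) and -0.44 (adjusted p = 0.178). Of 9 other synaptonemal and HORMA genes, 0 were called higher and 2 lower, with a median of -0.02. Syce2, of the central element, fell by 1.29 (adjusted p = 0.00318), and Hormad1, a protein of unpaired axes, fell by 1.78 (adjusted p = 0.0128). Both were also called in the mean of the 3 knockdowns, at -0.62 and -1.44 (adjusted p = 0.0486 and 0.0334), and both lost that call without either GFP array and with the Actb ratio as a term. In Smc1 itself Hormad1 was called in 1 of the 4 fits with an array left out, and stood at -1.01 (adjusted p = 0.10) with the term. Syce1, also of the central element, was higher in Smc1 than in the condensin knockdowns by 0.80 (adjusted p = 0.0484), a call made in 0 of the 8 fits with an array left out. In that comparison Syce2 was called lower (-0.998, adjusted p = 0.00728), as was Smc1a (-2.84, adjusted p = 2.86e-05). Stag1 was called higher (0.703, adjusted p = 0.03498). Of all genes 7.85% were called there. Without Smc1 replicate 1 the Syce2 and Stag1 calls were lost. With an array left out, Syce2 was called in 7 of the 8 fits and Stag1 in only 2. Smc1a was also called in the mean of the 3 knockdowns (-1.05, adjusted p = 0.0137), a call lost without either GFP array. That mean rested on the Smc1 group, since Smc1a changed by -0.058 in CapH2 and -0.158 in Smc2. Syce2 too changed less in CapH2 (-0.348) and Smc2 (-0.229) than in Smc1.

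Of 17 meiotic recombination genes, 1 was called higher and 1 lower in Smc1, with a median of -0.39. Psmc3ip, the Hop2 partner of the strand exchange proteins, fell by 1.01 (limma adjusted p = 0.00714), and Cntd1, a regulator of crossovers, rose by 0.48 (adjusted p = 0.0437). Of 8 genes of meiotic entry, 0 were called higher and 1 lower, Dmrt1 at -1.44 (adjusted p = 0.0406), with a median of -0.46. Of 17 genes of the piRNA pathway and germ granule, 3 were called higher and 3 lower, with a median of 0.48. Tdrd7, Tdrd3 and Slc25a31 rose by 2.13, 2.02 and 1.36 (adjusted p = 0.00917, 0.0129 and 0.0141), and Rnf17 fell by 1.12 (adjusted p = 0.0130). Tdrd7 and Rnf17 are Tudor proteins of germ granules, Tdrd3 is a Tudor protein made in many tissues, and Slc25a31 is a mitochondrial carrier of the testis. With the Actb ratio as a term Psmc3ip and Tdrd7 were called. Cntd1 (0.49, adjusted p = 0.112), Dmrt1 (-0.46, adjusted p = 0.373), Tdrd3 (1.05, adjusted p = 0.0843), Rnf17 (-0.62, adjusted p = 0.0766) and Slc25a31 (1.41, adjusted p = 0.0584) were not. With 1 array left out, Cntd1 was called in 0 of 4 fits, Dmrt1, Tdrd3, Rnf17 and Slc25a31 in 1 each, and Psmc3ip and Tdrd7 in 2 each. Against the condensin knockdowns Tdrd7 (1.897), Slc25a31 (1.42) and Dnd1 (0.724) were called higher in Smc1 (adjusted p = 0.0129, 0.0107 and 0.0314). Rnf17 and Psmc3ip were called lower, at -0.772 and -0.934 (adjusted p = 0.0436 and 0.00845). The Slc25a31 call was lost without Smc1 replicate 2, and the other calls without replicate 1 or replicate 2. Dnd1 and Rnf17 were called in only 2 of the 8 fits with an array left out, and lost their calls without either GFP array too. Tdrd7 and Psmc3ip were called in 6 of the 8, and Slc25a31 in 7. Tdrd3 was called in the mean of the 3 knockdowns (1.47, adjusted p = 0.0466), a call lost without either GFP array.

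Of 15 genes linked to primordial germ cells, 1 was called higher and 7 lower in Smc1, with a median of -0.66, and 2 to 7 were called in all with 1 of the 4 arrays left out. Prdm14, a transcription factor of germ cell specification and of naive pluripotency, measured 2159 and 2487 on GFP, 193 and 439 on Smc1, 861 and 1247 on CapH2 and 717 and 1064 on Smc2. Every knockdown array lay below GFP, and the Smc1 arrays were lowest. Prdm14 fell by 2.92 in Smc1 (SE 0.352, limma adjusted p = 0.00237). Tfap2c, another factor of germ cell specification, fell by 1.51 (adjusted p = 0.00310), Rhox5, an X-linked homeobox gene, fell by 0.95 (adjusted p = 0.00410), and Ifitm1 fell by 1.25 (adjusted p = 0.00627). Prdm14, Tfap2c, Ifitm1 and Prdm1 were also called lower in the mean of the 3 knockdowns (-1.82, -0.85, -0.87 and -1.33), where 3.4% of all genes were called. All 4 lost that call without GFP replicate 1, without GFP replicate 2 and with the Actb ratio as a term (-1.37, -0.94, -0.57 and -1.04). In that comparison 3, 1 and 3 of all genes were then called. Rhox6 was higher in Smc1 than in the condensin knockdowns by 1.67 (adjusted p = 0.00843), a call lost without Smc1 replicate 1. In that comparison Prdm14 (-1.65), Tfap2c (-0.989) and Rhox5 (-0.713) were called lower in Smc1 (adjusted p = 0.0141, 0.0126 and 0.0107). Their calls were also lost without Smc1 replicate 1, and those of Tfap2c and Rhox5 without Smc1 replicate 2 too. Several of these genes serve naive pluripotency too, and the summed pluripotent markers were lowest on the same Smc1 arrays; their part in these values was not tested.

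Of 26 genes for repressors of the germline, 2 were called higher and 1 lower in Smc1, with a median of -0.05, a count near the 14.1% of all genes. Mga, the E-box-binding subunit of PRC1.6, fell by 1.00 (limma adjusted p = 0.0128). Yaf2, a subunit of variant polycomb complexes, rose by 1.31 (adjusted p = 0.00772), and Dnmt3b, a de novo DNA methyltransferase, rose by 2.01 (adjusted p = 0.0345). With 1 array left out, Dnmt3b was called in 0 of 4 fits, Mga in 1 and Yaf2 in 2. With the Actb ratio as a term Dnmt3b stood at 0.61 (adjusted p = 0.292), Mga at -0.64 (adjusted p = 0.0915) and Yaf2 at 1.15 (adjusted p = 0.0474). Against the condensin knockdowns Yaf2 was called higher in Smc1 (1.26, adjusted p = 0.00797), a call lost without Smc1 replicate 1.

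**Figure D5:**
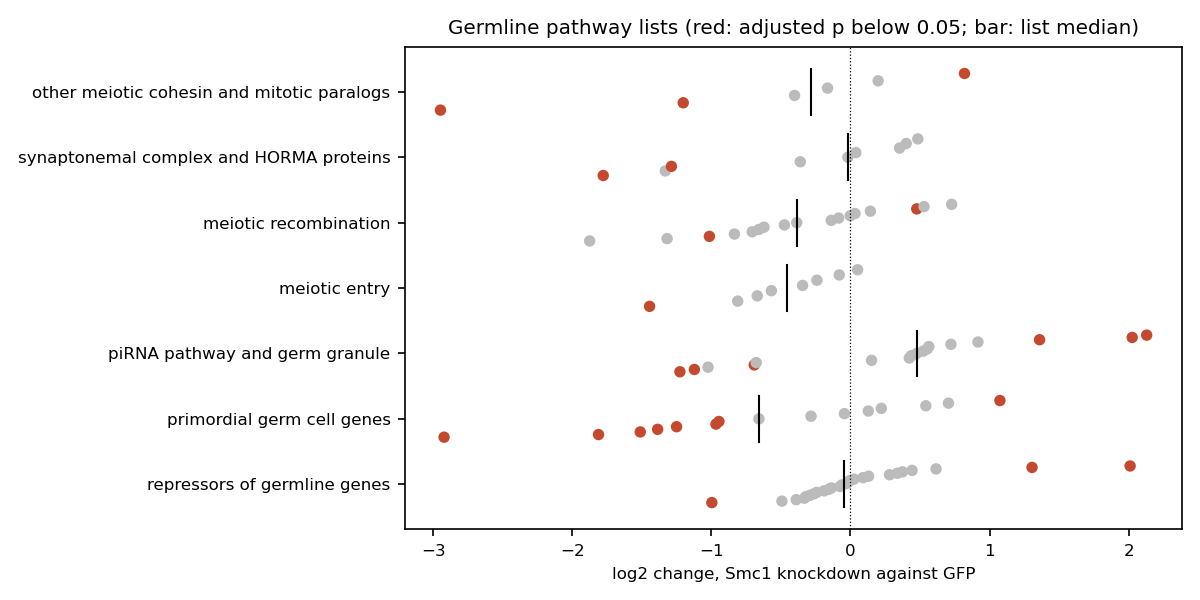
Log2 change in Smc1 against GFP of every tested gene in the 7 pathway lists, 1 point a gene, with called genes marked and list medians drawn. Of the 98 genes 25 are called, and the lowest list median is that of the primordial germ cell genes at -0.66.

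Markers of other cells were measured beside these genes. The 12 feeder fibroblast markers summed to 13000 to 19560 on GFP, 16730 to 16870 on CapH2, 13510 to 13840 on Smc2 and 14660 to 17890 on Smc1, ranges that overlap GFP in each knockdown. Most of each sum came from Vim (5307 and 9207 on GFP replicates 1 and 2) and Fn1 (7013 and 9505), so it says little of the other markers. No sum was at 0, and Lum and Dcn lay below the array median everywhere. In Smc1 2 of 10 tested, Col3a1 and Pdgfra, were called higher (1.92 and 1.37, limma adjusted p = 0.0154 and 0.0408), where 14.1% of all genes tested were called. Others went the other way, with Postn at -1.16 (adjusted p = 0.0738) and Thy1 at -0.39 (adjusted p = 0.432). Against the condensin knockdowns Col3a1 was called higher in Smc1 (1.605, adjusted p = 0.0260) and Postn lower (-1.41, adjusted p = 0.0337). The 8 markers of gonadal somatic cells summed to 395.4 to 411.8 on GFP, 447.5 to 495.1 on CapH2, 428.1 to 428.3 on Smc2 and 544.3 to 600.3 on Smc1, above GFP in each knockdown, with Amh, Sox9, Nr5a1 and Cyp17a1 below the array median everywhere and 0 of 4 tested called. Of those 4, Wt1 and Gata4 had positive changes in CapH2 and Smc2, and Foxl2 (-0.129 and -0.489) and Star (-0.158 and -0.165) negative ones. Of all single genes, 12.6% lay above both GFP arrays on all 6 knockdown arrays. Of 14 genes of the two-cell-like state only 4 had a probe set of their own; they summed to 253.8 to 654.7 on GFP, 738.9 to 1913 on CapH2, 1184 to 2049 on Smc2 and 1703 to 4003 on Smc1. Every knockdown array lay above both GFP arrays in that sum, and Usp17la, a deubiquitinase of that state, rose by 3.09 in Smc1 (adjusted p = 0.0111). Usp17la also made up most of the sum, at 392.3 and 132.2 on GFP and 3257 and 1328 on Smc1. Zfp352, Tcstv1 and Tcstv3 were not called in Smc1 (limma adjusted p = 0.0577, 0.1277 and 0.1002). Zfp352 and Tcstv3 lay below the array median on both GFP arrays. Tcstv1 measured 197 on CapH2 hairpin 4, below the 209.4 of GFP replicate 1. The part of such cells in the values of the 8 genes was not tested.

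The genes whose levels were most like each member over the 8 arrays were sought among 12392 others by Pearson's r of log2 values. They are a description, over arrays that share groups, with no test. For Smc1b they were Twsg1 (0.987) and Gm9895 (0.98), for Stag3 Mpv17l2 (0.993) and Aldh1b1 (0.99), and for Rec8 Ebf4 (0.994) and Mycbp2 (0.985). For Sycp3 they were Rassf6 (0.981) and Pgk1 (0.978), and for Sycp1 Erg28 (0.984) and Rps26 (0.959). For Dazl they were Mbtps2 (0.986) and Tlnrd1 (0.983), for Mael Phox2a (0.967) and Zfp455 (0.965), and for Ddx4 Fbxo44 (0.984) and Cmc1 (0.977). No gene of the 7 pathway lists was among these 16.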

How the data were processed

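Expression was measured in 8 samples, 2 in each of 4 groups, on Affymetrix mouse arrays from 100 ng of total RNA. The authors deposited a linear intensity for each of 44903 probe sets on every array. Their method of probe summary is not given in the sources used. Means trimmed by 2% were 488.9 to 490.0 on every array, so the deposited values had been scaled to a common mean, and no further normalization was added. Probe sets with 1 symbol (34771) were used, those with several (926) or none (9206) were not, and array controls were left out; 34554 were matched to RefSeq gene identifiers and 0 symbols changed.

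Each gene was represented by its brightest probe set on average, and a gene was tested if above the array median on at least 2 arrays, which left 12400. log2(value + 16) of all 8 arrays was fitted in R 4.3.3 with limma 3.58.1 (group means, eBayes with trend, 4 residual and 5.95 prior degrees of freedom), with Benjamini-Hochberg adjustment over all genes tested in each comparison and calls below 0.05. The fit was tested on simulated data. Named were all members, the targeted genes, the 2 most alike genes of each member and up to 4 called genes per pathway list and comparison with the smallest adjusted p. The members and lists were chosen with earlier results of these data known. Alternatives were pseudocounts 1 and 64, quantile normalization, median centring, no filter, every probe set, the replicate number as a block, each array left out and the Actb 3'/5' ratio as a term. Precision is limited by having only 2 arrays a group, and since each knockdown has 1 or 2 hairpins, p-values measure the spread between these arrays only. Smc1 and GFP arrays of the same number did not deviate together (r = 0.0661 across genes, which are not independent replicates). The differences within the knockdown groups, first array minus second, did correlate. Here r was 0.411 for CapH2 and Smc2, 0.263 for CapH2 and Smc1, and 0.21 for Smc2 and Smc1. With the GFP difference, r was -0.193 for CapH2 and -0.154 for Smc2. The fit treats all arrays as independent.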

Additional observations from a re-analysis of the deposited data

Results flagged for a closer look

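Rec8 was singled out because its change differed between knockdowns in a direct test. It measured 576 and 656 on the Smc1 arrays against 283 and 363 on CapH2, 245 and 283 on Smc2, and 271 and 199 on GFP. The Smc1 knockdown stood 1.04 above the mean of the condensin knockdowns on the log2 scale (SE 0.205, limma adjusted p = 0.0182), and both Smc1 arrays were above all 6 others. That call was lost without Smc1 replicate 1 (a change of 1.13) and without Smc1 replicate 2 (0.95), and both arrays carry the same hairpin.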

How the results depend on the processing

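Counts and changes below are limma values. Among tested members and comparisons over all alternatives, 675 values kept their direction and side of the threshold, 34 reversed, 7 passed it and 12 lost it. Causes were not tested. Many of the 675 could not change direction, so their number does not measure robustness. No filter, every probe set, the replicate block and leaving out an array outside the comparison all leave the change itself as it was. The Actb 3'/5' ratio as a term, chosen after the data were seen, turned Smc1b to 0.41, 0.86 and 0.12 and Sycp3 to 0.31, 0.77 and 0.29 (CapH2, Smc1 and mean of the 3 against GFP), Stag3 to 0.012, Sycp1 to 0.083 and Ddx4 to 0.18 in Smc1, and Sycp3 to 0.51 and Ddx4 to 0.040 in CapH2 against Smc2. With it, all genes called were 48 in Smc2, 592 in Smc1, 3 in the mean (members 0), 1663 in Smc1 against the condensins (members 3: Rec8, Sycp3 at 0.72 and Mael at 0.86) and 2 in CapH2 against Smc2. Median centring turned Stag3 to -0.022 in Smc1 against the condensins and moved the median change of all genes in Smc2 from -0.00461 to 0.0999; pseudocount 64 turned Smc1b to -0.019 in CapH2 against Smc2. Members called in the mean were 0 with pseudocount 1 (Dazl adjusted p = 0.0514), no filter (0.0847) and every probe set (0.0905). All genes called were 1 in Smc2 with every probe set, 158 in the mean with no filter and 174 with every probe set, 602 in Smc1 against the condensins with no filter, and 2 in CapH2 against Smc2 after quantile normalization.

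With 1 array left out, all genes called ranged from 0 to 7 in CapH2, 0 to 195 in Smc2, 140 to 2196 in Smc1, 1 to 1169 in the mean, 10 to 1166 in Smc1 against the condensins and 0 to 3 in CapH2 against Smc2; members called ranged from 0 to 0, 0 to 1, 0 to 2, 0 to 3, 0 to 1 and 0 to 0. Changes that crossed 0 were Rec8 in Smc2 (-0.039 to 0.38) and, in Smc1, Sycp3 (-0.79 to 0.086), Sycp1 (-0.45 to 0.062) and Mael (-0.12 to 0.32). In Smc1 against the condensins they were Smc1b (-0.91 to 1.07), Stag3 (-0.58 to 0.68), Sycp3 (-0.082 to 0.57) and Dazl (-0.013 to 0.997). In CapH2 against Smc2 they were Smc1b (-1.41 to 1.54), Stag3 (-0.54 to 0.68), Sycp3 (-0.60 to 0.46), Dazl (-1.18 to 0.069) and Ddx4 (-0.56 to 0.061). Where an arm was left with 1 array, that array was assumed to vary like the others. The replicate number as a block in Smc1 against GFP called 1 member, Rec8 (adjusted p = 0.0176), and 1373 genes, with 2 pairs that share only a number. Signals near the array median, as for Smc1b on Smc2 hairpin 1, depend most on the pseudocount.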

Other observations

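Dnmt3b was higher where the 8 genes were lower in both condensin knockdowns but not in Smc1, a pattern seen after its values. It measured 9522 on CapH2 hairpin 3 and 4871 on hairpin 4, and 12180 on Smc2 hairpin 1 and 2928 on hairpin 2. On Smc1 replicates 1 and 2 it measured 8532 and 8935, and on GFP replicates 1 and 2 it measured 1850 and 2511. Smc1b was lower on the first knockdown array of each pair, at 123 against 428, 69.3 against 644 and 113 against 495. The order was not particular to Dnmt3b. Dnmt3a measured 2176 and 1203 on CapH2 hairpins 3 and 4, and 3086 and 1194 on Smc2 hairpins 1 and 2. It measured 903.7 and 1334 on Smc1 replicates 1 and 2. Dppa2 and Tdrd3 were also higher on CapH2 hairpin 3 and Smc2 hairpin 1 than on the other hairpin, and higher on Smc1 replicate 1 than on replicate 2. Across all genes tested, the difference between the 2 arrays of CapH2 correlated with that of Smc2 (r = 0.411), so the 2 groups tended to share an order. The share of all genes with the order of Dnmt3b was not counted, and its relation to the 8 genes was not tested.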
